A study of Mus musculus with 6 samples.

Results

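The collagens, laminins and nidogens of the mouse testis were read from single-cell RNA counts of 6 libraries. Members were all genes whose symbol is a numbered collagen chain, a laminin alpha, beta or gamma chain or a nidogen, with at least 1 UMI (unique molecular identifier, a tag that marks 1 captured RNA molecule). The rule gave 56 of 25771 genes, made up of 43 collagens, 11 laminins and 2 nidogens. Testes of adult C57BL6 mice were digested with enzymes and sequenced with the 10x Genomics 3′ v2 chemistry. There were 3 libraries of the genotype NONO (TA, TB and TC) and 3 of NONO deltaER (TD, TE and TF). Both genotypes came from the same strain and had no treatment. The deposited cell table calls the groups WT and KI, read here as NONO and NONO deltaER, and if that reading were wrong every direction below would turn. The sources used here do not say what deltaER alters. The labels tie no library to an animal, and p-values therefore rest on the spread from library to library, which may be technical.

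Basement membranes are thin sheets of extracellular matrix in which a laminin network and a type IV collagen network are joined by nidogens and by the heparan sulfate proteoglycan perlecan. In the testis such a sheet lies under the seminiferous epithelium, between the Sertoli cells and spermatogonia on its inner side and the peritubular myoid cells on its outer side. Fibrillar and type VI collagens belong to the connective tissue outside it, and blood vessels carry basement membranes of their own.

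The libraries held 46495 cells, 6261 to 8909 each, with 81042216 to 110018960 UMI per library. The authors' annotation put them in 17 classes, 5 somatic and 12 of germ cells. Library TC stood apart in the classes that carry most of these genes. Its Myoid class had 21 cells against 40 to 129 in the other libraries, and its summed level of 8 peritubular myoid markers was 4492 CPM (UMI scaled to 1000000 per class and library) against 8070 to 19110. Its Unknown class had a summed fibroblast marker level of 3541 CPM against 13165 to 16104. The libraries also fall into sets by their mean mitochondrial UMI share, 0.462% to 0.507% in TA, TB and TF and 0.226% to 0.342% in TC, TD and TE. The first set holds 2 NONO libraries and the second holds 1, which is TC. Nono itself stood at 4.02 to 5.91 CPM in NONO and 5.01 to 5.27 CPM in NONO deltaER libraries over all cells. A 3′ tag outside the altered part checks nothing about the genotype. A total of 650 cell barcodes occurred in more than 1 library, covering 1309 cells (2.82%).

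Levels are given as CPM of the summed UMI of a class in a library. A 3′ library yields about 1 tag per transcript, so these values are not divided by gene length. The class labels were made from the same cells' expression, so a level in 1 class against another is a description with no test. The myoid class was led by its markers, with Myh11 at 6399 ± 2803 CPM and Acta2 at 3651 ± 1475 CPM (SD, n = 6). The class labelled Unknown was led among markers by Dcn (decorin, a small proteoglycan of connective tissue) at 6878 ± 2396 CPM. It keeps the name Unknown below. Of 7 fibroblast or interstitial progenitor markers, 6 were in the table.

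Of the 56 members, 39 had their highest mean level in a somatic class and 17 in a germ cell class. The Unknown class was highest for 21 members and the Myoid class for 14. Sertoli cells were highest for Lama1 and Lama3, Leydig cells for Col11a1 and macrophages for Col24a1. These are ranks of means. Only for Lamb3, Col9a3, Col20a1, Col11a1 and Col26a1 did the libraries of the highest class all lie above those of the next. None of these 5 was highest in Unknown or Myoid. Some ranks rest on few counts, such as 7 UMI for Col24a1 in macrophages. Summed over all members, the level was 9562 CPM in Unknown, 6021 CPM in Myoid, 988 CPM in Leydig, 837 CPM in Sertoli and 389 CPM in Macrophage. Germ cell classes ranged up to 982 CPM in step 5-6 round spermatids.

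Germ cells nevertheless gave most of the molecules. On average 93.8% ± 2.30 (SD, n = 6) of all member UMI came from the 12 germ classes. With each class given the same weight that share was 25.5%. The germ classes also held most UMI of all genes, and their share of these is not given here. Sertoli, the largest somatic class, had 598185 to 1184850 UMI per library, and step 4-5 round spermatids had 15328665 to 28017843. The 93.8% is therefore not read as a trait of the members. Type IV collagens gave 13.1% ± 6.44 of their UMI from the Myoid class and 12.2% ± 7.64 from Unknown. In a sum over cells, fewer cells of a type and less RNA per cell cannot be told apart.

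**Figure D1:**
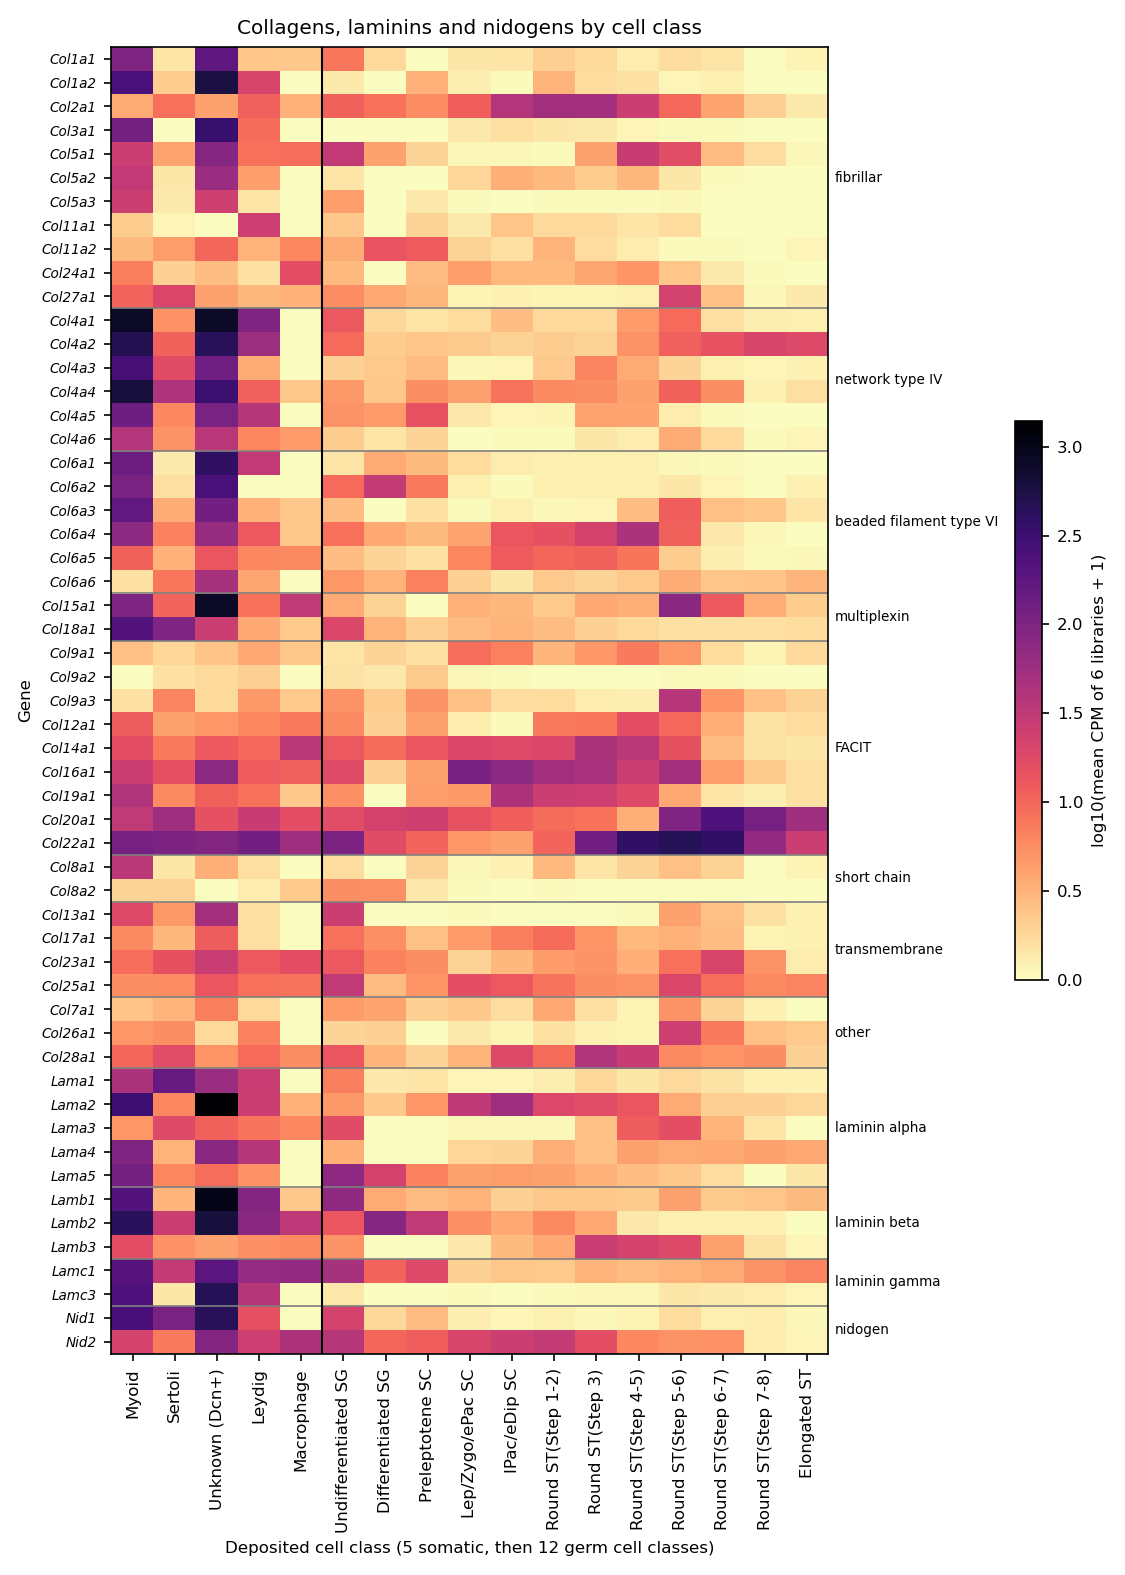
Heat map of 55 genes (rows, by family) in the 17 deposited cell classes (columns, somatic left of the line), as log10 of the mean CPM of 6 libraries plus 1. Type IV collagen, nidogen and most laminin rows are darkest in the Myoid or Unknown column. Lama1 and Lama3 are darkest in Sertoli and Lamb3 in step 3 round spermatids. Col22a1 and Col20a1 peak in round spermatids at 467 and 229 CPM.

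The type IV collagens form the network of the basement membrane. The chains Col4a1 and Col4a2 are found in nearly all basement membranes, and Col4a3 to Col4a6 form the networks of selected ones. The 6 genes lie in 3 head-to-head pairs, in which neighbours are read in opposite directions from nearly the same place. On mouse build GRCm38 (GENCODE M21), Col4a1 occupies chromosome 8 from 11198423 to 11312826 on the minus strand and Col4a2 from 11312805 to 11449287 on the plus strand, so their annotated ends overlap by 22 bases. Col4a4 lies on chromosome 1 from 82448423 to 82586849 on the minus strand and Col4a3 from 82586921 to 82722059 on the plus strand, with 71 bases between them. Col4a6 lies on chromosome X from 141165403 to 141474076 on the minus strand and Col4a5 from 141475385 to 141689234 on the plus strand, with 1308 bases between them. The stretch between the starts of Col4a4 and Col4a3 and the stretch before Col4a6 are shown because the levels of the paired genes are compared next. Both are from RefSeq (GRCm38.p6), and capitals mark a match to GGGCGG on either strand.
Col4a4 to Col4a3, chr1:82586850-82586920, plus strand: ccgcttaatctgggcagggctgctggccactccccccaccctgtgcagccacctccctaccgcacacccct
Col4a6 upstream, chrX:141474077-141474326, minus strand: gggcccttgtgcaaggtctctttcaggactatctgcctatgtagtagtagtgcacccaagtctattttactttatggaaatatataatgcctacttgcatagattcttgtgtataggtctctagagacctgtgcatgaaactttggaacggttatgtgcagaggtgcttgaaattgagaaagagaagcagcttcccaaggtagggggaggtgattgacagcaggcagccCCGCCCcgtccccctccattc
Besides GGGCGG, a GC box core, the CAAT box (CCAAT) was searched on both strands, and so was the TATA box (TATAAA), with no overlap among these motifs. The first stretch is 69% G or C and holds none of them. Among 32851 RefSeq windows of 71 bases, 20.7% held the GC box core, 13.3% the CAAT box and 4.41% the TATA box. The second holds 1 GGGCGG, read on the other strand as CCGCCC, and 32.7% of windows of 250 bases held that motif. These matches are descriptions of letters only. RefSeq windows were at hand for 40 of the 56 genes.

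All 6 type IV genes had their highest mean level in the Myoid class. Col4a1 led at 836 ± 398 CPM there (SD, n = 6) and was at 797 ± 364 CPM in Unknown, and the ranges of these classes overlapped. It was at 96.6 CPM in Leydig cells and at most 11.8 CPM in any germ class, in undifferentiated spermatogonia. Col4a4 was at 620 ± 469 CPM in Myoid and 322 ± 140 CPM in Unknown, and at 40.9 ± 14.7 CPM in Sertoli cells. Col4a2 followed at 503 ± 274 CPM in Myoid and 442 ± 198 CPM in Unknown. Col4a3 was at 271 ± 269, Col4a5 at 131 ± 104 and Col4a6 at 38.0 ± 27.2 CPM in Myoid. In Unknown they were at 126 ± 47.5, 105 ± 50.3 and 34.1 ± 23.2 CPM. Myoid lay above Unknown in 5 of 6 libraries for Col4a3 and Col4a4 and in 4 for Col4a1 and Col4a2. It did so in 3 for Col4a5 and 2 for Col4a6, and the ranges of these classes overlapped for all 6 genes. The plot of head-to-head genes shows that partners were not at equal levels in any of the pairs in the Myoid class. The order was not the same in all classes. In Sertoli cells Col4a2 was at 9.81 and Col4a1 at 4.23 CPM, and Col4a5 at 4.97 and Col4a6 at 4.10 CPM. Col4a4 lay above Col4a3 there too, at 40.9 and 16.1 CPM. Col4a1 lay above Col4a2 and Col4a4 above Col4a3 in all 6 myoid libraries. Col4a5 lay above Col4a6 in 5 of them, the exception being TB with 54.9 CPM of Col4a5 and 61.0 CPM of Col4a6.

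Col4a2 differed from Col4a1 in spermatids. It was at 13.5 CPM in step 6-7, 19.1 CPM in step 7-8 and 17.0 CPM in elongated spermatids, where Col4a1 was at 0.603, 0.254 and 0.230 CPM. Col4a2 overlaps Col4a1 and Gm15419, both on the opposite strand, and the use of strand in counting is not known here.

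**Figure D2:**
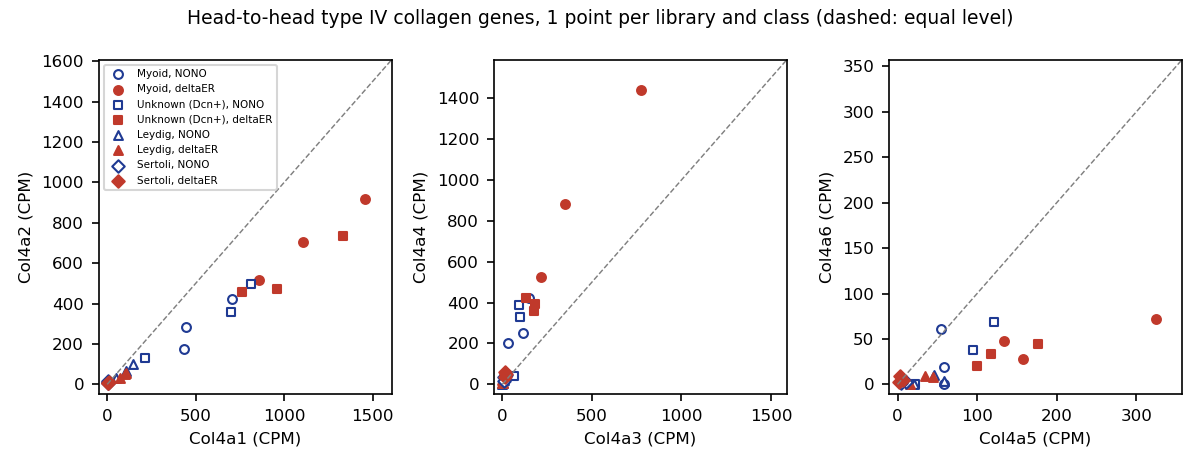
Levels in CPM of the head-to-head type IV genes, 1 point per library and class (circles Myoid, squares Unknown, triangles Leydig, diamonds Sertoli; open NONO, filled NONO deltaER), with the dashed line at equal level. In the Myoid and Unknown classes Col4a1 lies above Col4a2, in the Myoid class Col4a4 lies above Col4a3, and Col4a6 reaches at most 72.0 CPM in Myoid where Col4a5 reaches 324 CPM.

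In the Myoid class the type IV genes were higher in NONO deltaER than in NONO libraries in every tested case, without passing the test across all genes. Col4a1 was at 445, 708 and 435 CPM in TA, TB and TC and at 1108, 1459 and 860 CPM in TD, TE and TF. Col4a4 was at 251, 421 and 203 CPM against 882, 1441 and 524 CPM. Col4a2 was at 284, 421 and 174 CPM against 705, 919 and 518 CPM. In these genes every NONO deltaER library lay above every NONO library, with TE highest and TC lowest. Col4a3 was at 116, 146 and 29.0 CPM against 349, 774 and 214 CPM, and the value in TC was 1 UMI. Col4a5 was at 58.0, 54.9 and 58.0 CPM against 157, 324 and 134 CPM. These groups did not overlap either, while Col4a6 did overlap, with 19.3, 61.0 and 0 CPM against 27.4, 72.0 and 48.1 CPM, and had too few counts to be tested.

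The log2 fold change of NONO deltaER over NONO was 1.95 ± 0.52 (SE) for Col4a3, 1.77 ± 0.49 for Col4a5, 1.70 ± 0.45 for Col4a4, 1.25 ± 0.42 for Col4a2 and 1.15 ± 0.39 for Col4a1. With edgeR's quasi-likelihood test and Benjamini-Hochberg adjustment over 3705 genes, the lowest adjusted p was 0.502, for Col4a4 (unadjusted p = 0.00134) and Col4a3 (unadjusted p = 0.00138). Adjusted p was 0.527 for Col4a5 and 0.546 for Col4a2 and Col4a1.

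The same direction ran through most members in this class. Of 56 members, 22 had counts enough to be tested and 20 of these were above 0. Their median log2 fold change was 1.14, beside -0.012 over all genes tested. None passed an adjusted p of 0.05 (background 0.00% of genes), with edgeR or with DESeq2. At an unadjusted p under 0.05 there were 12 members with edgeR, all higher in NONO deltaER, where 7.85% of all genes were past it. DESeq2 also had 12, with its share of all genes not given here. In 7 of the 22 tested members the groups did not overlap with NONO deltaER higher, where 8.34% of all genes did so. These were Col4a1 to Col4a5, Col3a1 and Lamb1. The count filter asks for enough counts in 3 libraries of any genotype. Col4a5 met it through its NONO deltaER libraries alone, so it could enter only as a member higher there. It is counted in the 20, the 12 and the 7 above and adds no support to them.

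The tested laminins of the Myoid class had log2 fold changes from -0.19 ± 0.54 (Lama5) to 1.35 ± 0.49 (Lama2). Lamc3 was at 1.29 ± 0.50 and Lama4 at 0.88 ± 0.61, both with overlapping groups. Lamb2, the beta chain of several laminins of muscle and vessels, was at 264, 494 and 232 CPM against 438, 793 and 342 CPM. Its groups overlapped (log2 fold change 0.65 ± 0.44, edgeR adjusted p = 0.692). Lama2, the alpha chain of the laminin that links to muscle fibres, was at 177, 214 and 86.9 CPM against 356, 774 and 208 CPM (1.35 ± 0.49, edgeR adjusted p = 0.546). The NONO library TB lay just above the NONO deltaER library TF for Lama2. Lamb1, a widespread beta chain, was at 103, 171 and 86.9 CPM against 280, 450 and 171 CPM (1.24 ± 0.46, edgeR adjusted p = 0.546). Its nearest libraries, TB and TF, differed by less than 1 CPM. Lamc1, the common gamma chain, was at 100, 232 and 86.9 CPM against 233, 324 and 214 CPM, with overlapping groups (0.81 ± 0.44, edgeR adjusted p = 0.649).

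Nid1, a linker between laminin and type IV collagen, was at 171, 256 and 29.0 CPM against 349, 576 and 235 CPM in the Myoid class (1.13 ± 0.49, edgeR adjusted p = 0.585). Again TB exceeded TF. Col18a1, a basement membrane collagen whose end piece is endostatin, was at 155, 262 and 0 CPM against 185, 216 and 438 CPM. A count of 0 in TC allows up to 86.9 CPM, the level of 3 UMI (counting error only). The connective tissue collagens Col1a2 (1.39 ± 0.50), Col3a1 (1.31 ± 0.55) and Col6a1 (1.30 ± 0.58) had fold changes of the same size as the type IV genes. Lama5, an alpha chain of epithelial and vessel basement membranes, and Col22a1 were the tested members below 0, at -0.19 ± 0.54 and -0.34 ± 0.54.

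TC bears on these values. Without it 23 of 25 tested members were above 0, their median was 1.00, and 10 had an unadjusted p under 0.05. Col4a3 was then at 1.68 ± 0.52, Col4a5 at 1.71 ± 0.52, Col4a4 at 1.47 ± 0.48 and Col4a1 at 0.97 ± 0.43 (edgeR adjusted p = 0.826 for each). Other single libraries bear on the count as well. Without TE 5 members had an unadjusted edgeR p under 0.05 (median 0.76), without TA 5 (median 0.95) and without TB 18 (median 1.51). It was 6 with the mitochondrial set as a covariate and 2 without the 5% of cells with the highest doublet scores. The share of all genes past that level in these fits, and without TC, is not given here. The counts are therefore not read as results about the members. Within the high mitochondrial set (TA and TB against TF) the log2 ratio of mean CPM was 0.58 for Col4a1, 0.64 for Col4a4, 0.70 for Col4a3 and 1.24 for Col4a5, but -0.15 for Lamb2 and 0.09 for Lama2. In the low set (TC against TD and TE) it was 1.56, 2.52, 4.28 and 2.06 for the same type IV genes, 1.41 for Lamb2 and 2.70 for Lama2. The low set holds TC as its only NONO library.

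Other transcripts moved with this difference. Of 7 tested peritubular myoid markers, 6 were above 0, with a median of 0.78. The summed markers were at 8070, 15516 and 4492 CPM in NONO and 13318, 19110 and 14708 CPM in NONO deltaER. Fibroblast markers summed to 116 to 439 CPM against 385 to 829 CPM, with Dpt and Mfap5 at 0. Pericyte markers summed to 406 to 1690 CPM against 1309 to 1495 CPM, and endothelial markers to 419 to 753 CPM against 508 to 698 CPM. Spermatid markers ran the other way, 11418 to 14019 CPM against 5927 to 11731 CPM. The part of these in the result was not tested. In cells with at least 3 UMI of myoid markers (52, 56 and 4 cells against 50, 28 and 70), the median of 21 tested members was 0.97, and it was 0.94 over 25 members when TC was left out as well. This selection was added after seeing the data.

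**Figure D3:**
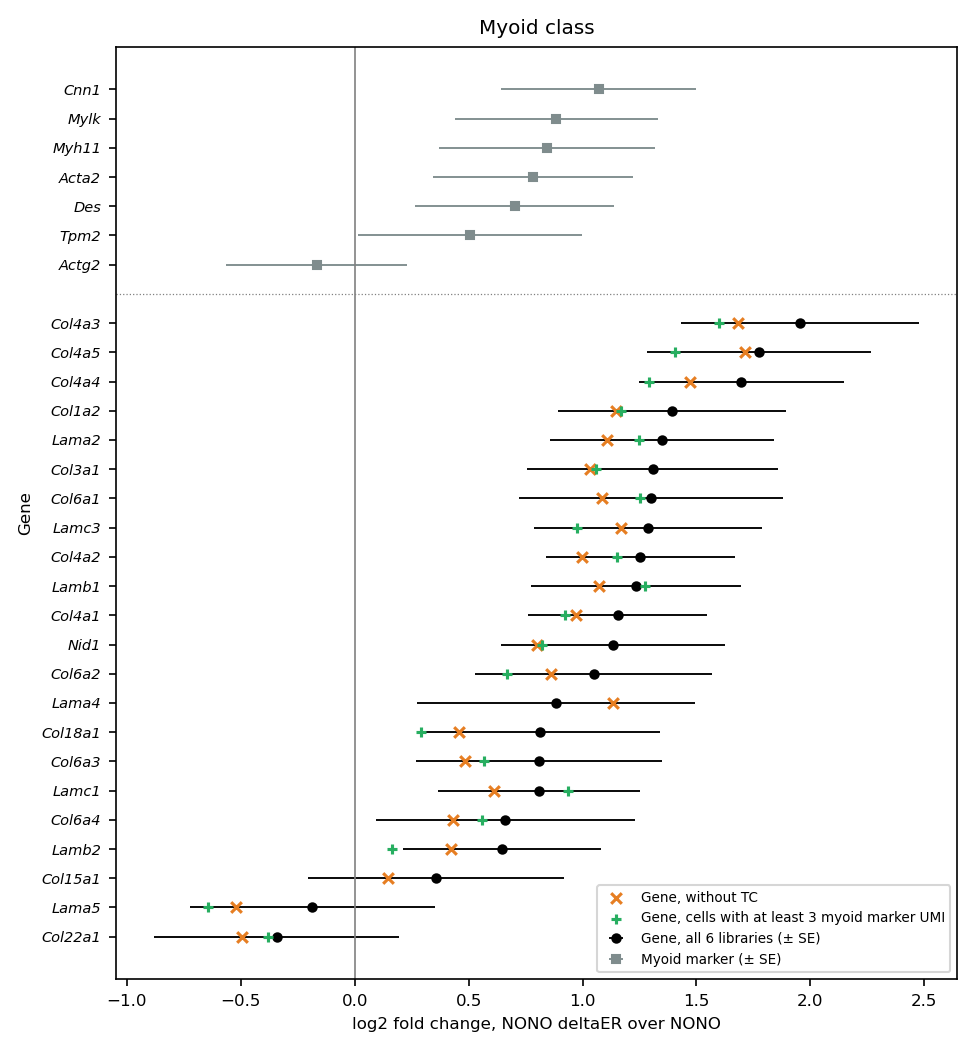
Log2 fold change of NONO deltaER over NONO in the Myoid class for the 22 tested genes (black points, bars ± SE), without TC (orange crosses), in cells with at least 3 myoid marker UMI (green plus signs), and for 7 myoid markers (grey squares). All but Lama5 and Col22a1 lie to the right of 0, and so do 6 of 7 markers.

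The Myoid class was not of 1 kind. In 91 of its 454 cells there were at least 2 UMI of endothelial markers, and 224 cells had none of these and at least 3 UMI of myoid markers. Pooled over libraries, Lama4 (a laminin alpha chain of vessels) was at 149 CPM in the first and 52.5 CPM in the second, and it was higher in the first in 6 of 6 libraries. Col15a1, a basement membrane collagen related to Col18a1, was at 131 against 47.9 CPM, and Col13a1, a transmembrane collagen, at 60.6 against 4.56 CPM, both higher in 5 libraries and lower in none. Col4a4 ran the other way, at 182 against 917 CPM, as did Col1a2 (56.0 against 365 CPM) and Lamb1 (79.3 against 256 CPM), all lower in 6 of 6 libraries. Col4a1 was high in both, at 616 against 986 CPM. These subsets rest on as few as 3 cells in TC and are a description.

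Sertoli cells, the somatic cells of the seminiferous epithelium, carried Lama1, Nid1 and Col18a1. Lama1 is the alpha chain of the first laminin described. It was at 155, 147 and 80.6 CPM in NONO and 188, 153 and 178 CPM in NONO deltaER Sertoli cells, and 63.1% ± 8.89 (SD, n = 6) of its UMI in a library came from this class. Its next highest class was Unknown at 60.7 ± 33.3 CPM, and it was at most 5.92 CPM in a germ class. The genotypes overlapped (0.45 ± 0.23, edgeR adjusted p = 0.960), and without TC the difference was 0.23.

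Nid1 in Sertoli cells was at 93.7, 100 and 43.8 CPM in NONO and 155, 138 and 118 CPM in NONO deltaER. The groups did not overlap, as in 5.09% of all genes, with a log2 fold change of 0.82 ± 0.25 (unadjusted p = 0.00344, edgeR adjusted p = 0.960 over 9026 genes). Col18a1 was at 87.2, 75.2 and 56.6 CPM against 134, 76.7 and 149 CPM (0.71 ± 0.25, edgeR adjusted p = 0.960), with TE next to TB and below TA. Within the high mitochondrial set the log2 ratio was 0.29 for Nid1 and 0.87 for Col18a1, and within the low set 1.74 and 0.90. Without TC the fold changes were 0.55 ± 0.23 and 0.58 ± 0.26. Of 14 tested members, 12 were above 0 with a median of 0.47, beside 0.0062 over all genes, and without TC the median was 0.28. None passed the adjusted threshold (background 0.00%). Nid1 and Col18a1 had an unadjusted p under 0.05, as did 4.83% of all genes. The 10 Sertoli markers in this class summed to 3895 to 5991 CPM, and 8 of the 10 were above 0, with a median of 0.22.

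Lama3, the alpha chain of an epithelial anchoring laminin, was highest in Sertoli cells at 17.4 ± 7.90 CPM and its level in undifferentiated spermatogonia lay within that spread. The spermatid collagens Col22a1 (102 ± 20.7 CPM) and Col20a1 (55.0 ± 10.8 CPM) were among the 5 highest members of the Sertoli class. Col22a1 was also at 113 CPM in Myoid, 124 CPM in Leydig, 89.9 CPM in Unknown and 55.9 CPM in Macrophage. Spermatid markers summed to 21783 to 34724 CPM in the Sertoli class and were present in the other somatic classes too. Col22a1 was lower in differentiated spermatogonia, at 16.3 CPM, and in preleptotene cells, at 9.20 CPM. The part of spermatid RNA in the somatic levels was not tested, and they are not read as expression by those cells.

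**Figure D4:**
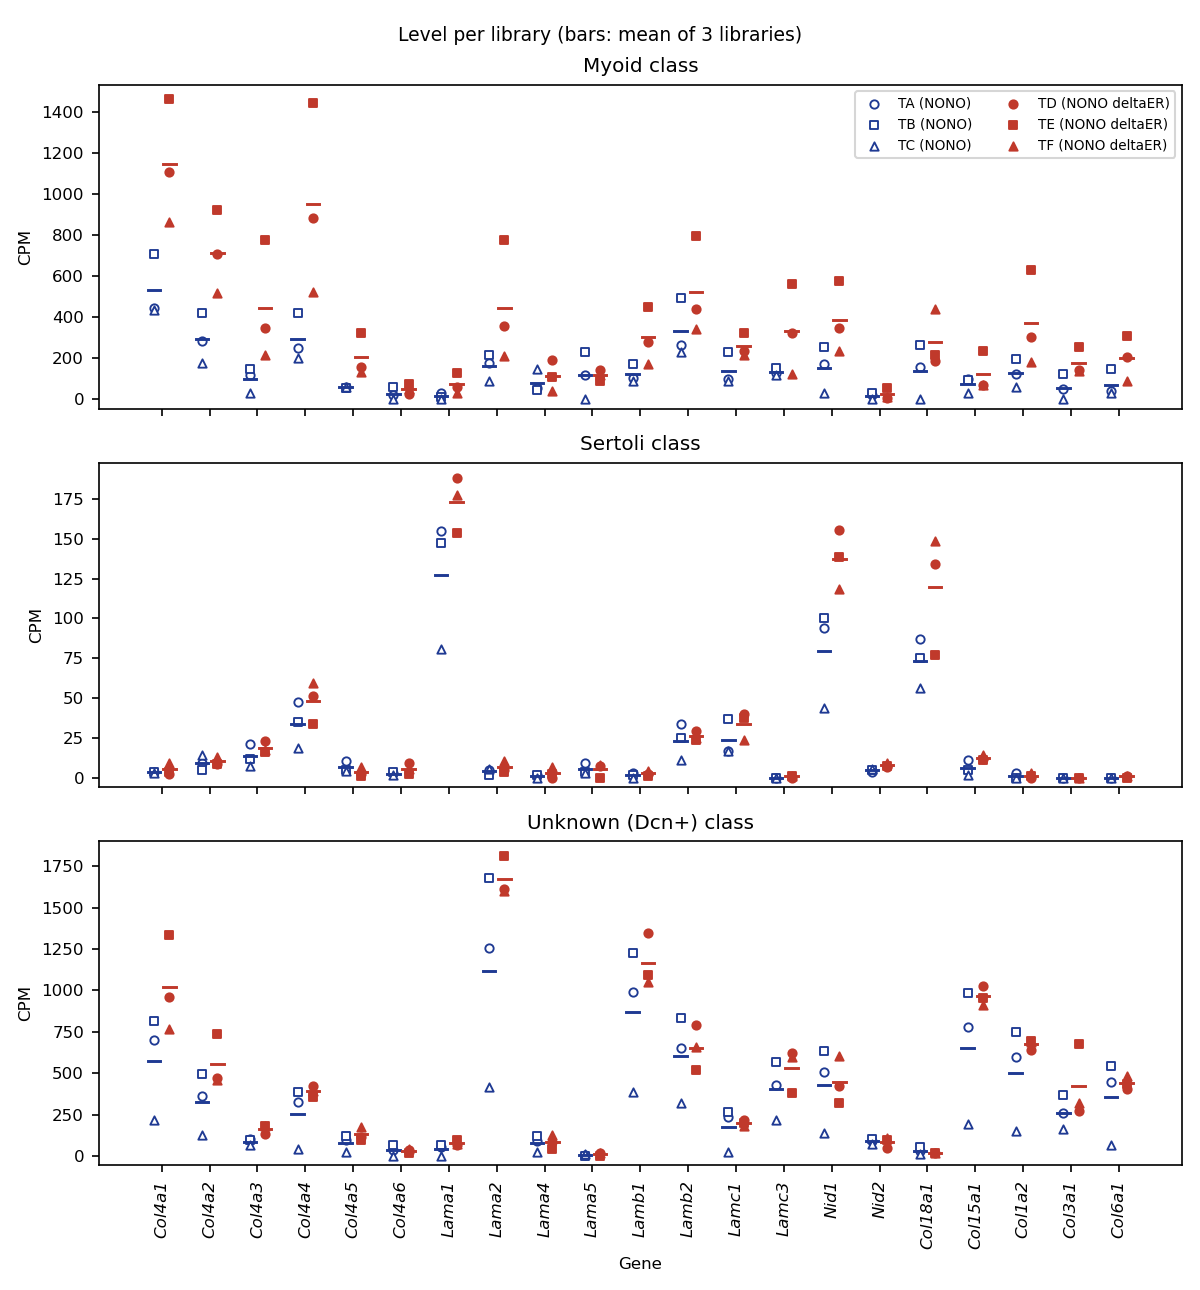
Level in CPM of 21 genes in the Myoid (top), Sertoli (middle) and Unknown (bottom) classes, 1 marker per library (open NONO, filled NONO deltaER) with bars at the mean of 3 libraries. TC is the lowest library for most genes of the Unknown class, for example Lama2 at 420 CPM against 1259 to 1810 CPM in the others.

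The Unknown class had the highest mean level of 21 members, among them Lama2, Lamb1, Lamb2, Lamc3, Col1a1, Col1a2, Col3a1, Col6a1 and Col6a2. Lama2 was at 1259, 1679 and 420 CPM in NONO and 1615, 1810 and 1599 CPM in NONO deltaER. Lamb1 was at 990, 1227 and 387 CPM against 1346, 1094 and 1051 CPM. Col15a1 was at 778, 982 and 194 CPM against 1026, 955 and 910 CPM. In each of these TC lay far below the 5 other libraries, whose genotypes overlapped. Col4a1 was at 699, 815 and 215 CPM against 959, 1332 and 764 CPM, and Lamb2 at 655, 831 and 323 CPM against 791, 517 and 658 CPM. Lamc3, a gamma chain of a few tissues, was at 469 ± 158 CPM over 6 libraries, and 52.4% ± 21.2 of its UMI came from here.

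Of the fibrillar collagens, which form the fibres of connective tissue, Col1a2 was at 587 ± 220, Col3a1 at 343 ± 177 and Col1a1 at 175 ± 73.5 CPM. Of the type VI chains, which form beaded filaments around cells, Col6a1 was at 397 ± 170 and Col6a2 at 257 ± 109 CPM, both above the Myoid class in 6 of 6 libraries. Col6a3, their usual partner chain, was at 119 ± 67.1 CPM here and 162 ± 108 CPM in Myoid, with Myoid higher in 3 of 6 libraries. Nid1 was at 437 ± 187 CPM and Nid2, its relative, at 87.4 ± 21.1 CPM.

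With all 6 libraries 23 of 25 tested members of the Unknown class were above 0, with a median of 0.35 beside -0.026 over all genes. None passed the adjusted threshold (background 0.00%) and none had an unadjusted p under 0.05 with edgeR, as did 2.86% of all genes. Col4a3, at 101, 94.9 and 64.6 CPM against 135, 179 and 181 CPM, had the lowest p (0.83 ± 0.43, edgeR unadjusted p = 0.0715) and was the only tested member whose groups did not overlap, as in 5.61% of all genes. Without TC only 17 of 30 tested members were above 0 and the median was 0.06. Lama2 went from 0.51 to 0.12 and Lamb1 from 0.35 to -0.0071, while Col4a3 was at 0.71 ± 0.33 (edgeR adjusted p = 0.465). Within the high mitochondrial set the log2 ratio was 0.12 for Lama2, -0.08 for Lamb1, 0.05 for Col15a1 and 0.01 for Col4a1, and within the low set, against TC, 2.03, 1.65, 2.35 and 2.41. Spermatocyte markers in this class were at 2368 CPM in TC and 318 to 667 CPM in the others. Their part in the TC values was not tested.

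The genotype effects of the classes were also set against each other within libraries. None of 7 members tested between Myoid and Sertoli, 20 between Myoid and Unknown and 7 between Sertoli and Unknown passed the threshold (limma, Benjamini-Hochberg). The largest was Col4a3, whose effect was 1.61 ± 0.67 higher in Myoid than in Sertoli cells on the log2 scale (limma adjusted p = 0.792). So no difference between classes was shown.

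The classes' shares of cells did not separate the genotypes. Myoid cells made up 0.916% ± 0.593 of NONO and 0.990% ± 0.313 of NONO deltaER libraries (SD, n = 3; exact two-sided permutation p = 0.8). Sertoli cells made up 3.15% ± 1.44 and 4.24% ± 0.604 (exact permutation p = 0.3), and Unknown cells 0.502% to 2.22% and 0.543% to 1.69% (exact permutation p = 0.5). With 3 against 3 libraries this test cannot go below 0.1. Adjusted over the 5 somatic classes, p was 0.833 to 0.9.

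Leydig cells, which make testosterone, had Col4a1 at 96.6, Lamb1 at 86.4 and Lamb2 at 79.3 CPM, and 5 of 10 tested members were above 0. None had an unadjusted p under 0.05 (3.32% of all genes). Col11a1, a minor fibrillar chain, was at 31.8, 13.1 and 25.9 CPM in NONO and 12.7, 26.5 and 33.0 CPM in NONO deltaER Leydig cells. It was at most 1.39 CPM in any other class, and each Leydig library lay above all 6 libraries of the class with the next highest mean. In macrophages Lamc1 was at 22.2, 39.4 and 0 CPM against 40.7, 188 and 133 CPM, from 26 UMI in all, and no member could be tested. The count of 0 in TC allows up to 137 CPM, the level of 3 UMI (counting error only), which is above the values of TD and TF.

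The partners of these chains were followed in 5 lists. Enzymes and chaperones of collagen folding (17 of 17 measured) were highest in Unknown, led by Serpinh1, the collagen chaperone, at 488 ± 165 CPM and P4hb, a prolyl hydroxylase subunit, at 292 ± 131 CPM. Secretion and crosslinking genes (15 of 16 measured) were led there by Mia3, which loads procollagen into transport carriers, at 171 ± 27.5 CPM and Pcolce, an enhancer of procollagen cleavage, at 137 ± 26.5 CPM. Receptors (14 of 14 measured) were highest in Myoid, led by Itgb1, the shared beta integrin chain, at 812 ± 324 CPM and Itga1, a collagen-binding integrin chain, at 279 ± 182 CPM. Other basement membrane and matrix genes (21 of 21 measured) were led by Dcn and by Sparc, a collagen-binding matrix protein that was at 1109 ± 414 CPM in Unknown. Proteases and inhibitors (9 of 12 measured) were led by Timp2 at 1651 ± 505 CPM and Adamts5 at 999 ± 360 CPM in Unknown.

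No gene of these lists passed the adjusted threshold in the Myoid, Sertoli or Unknown class with edgeR. In the Myoid class 8 of 8 tested genes of the other matrix list were above 0 (median 1.1, 3 at an unadjusted p under 0.05), as were 6 of 7 receptors (median 0.82, 1 at that level). All 3 tested folding genes had a median of 0.25 and all 3 tested secretion genes 0.34, with none at that level. Over all genes tested in this class the median was -0.012, and 7.85% had an unadjusted edgeR p under 0.05. Values of these lists without TC are not given here. Itgb1 was at 532, 940 and 290 CPM in NONO and 1074, 1063 and 973 CPM in NONO deltaER myoid libraries (0.82 ± 0.41, edgeR adjusted p = 0.620). In the Unknown class the same lists had medians between -0.13 and 0.48, beside -0.026 over all genes tested.

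In germ cells the leading member was not the same in all classes. Col22a1 was the highest member of undifferentiated spermatogonia, at 101 ± 26.5 CPM (SD, n = 6). That level is like those of the somatic classes (102 CPM in Sertoli, 124 CPM in Leydig), which were not read as expression. The part of spermatid RNA in it was not tested. Col22a1 was at 16.3 CPM in differentiated spermatogonia, 9.20 CPM in preleptotene cells, and 3.85 and 3.02 CPM in the later spermatocyte classes. Lama5, at 73.9 ± 13.3 CPM, and Lamb1, at 70.9 CPM, were highest among germ classes in undifferentiated spermatogonia, which sit on the basement membrane, beside Lamc1 at 47.3 CPM and Nid2 at 36.6 CPM. Lama5, Lamb1 and Lamc1 together make a laminin found under many epithelia. Lamb1 was at 70.2, 67.4 and 47.0 CPM in NONO and 55.7, 114 and 70.5 CPM in NONO deltaER spermatogonia. Lamb2 replaced it in order of level in differentiated spermatogonia, at 119, 91.5 and 67.6 CPM against 59.4, 51.7 and 129 CPM, and was at 30.3 CPM in preleptotene spermatocytes.

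In spermatocytes the leading member was Col16a1, a collagen that binds to fibril surfaces, with 109 ± 29.1 CPM in leptotene to early pachytene cells and 75.9 ± 13.8 CPM in late pachytene to early diplotene cells as the deposited names read. Lama2 was at 53.8 ± 5.55 CPM and Col19a1, a minor basement membrane zone collagen, at 43.2 ± 6.84 CPM in the latter. Col2a1, the cartilage fibril chain, was at 38.2 CPM there and reached 52.3 ± 3.33 CPM in step 1-2 spermatids. In step 3 spermatids Col14a1, a fibril-associated collagen, was at 44.1 ± 2.98 CPM, Col28a1 at 39.6 ± 7.46 CPM and Lamb3, the beta chain of the epithelial anchoring laminin, at 26.2 ± 0.669 CPM. Lamb3 lies on the same stretch of chromosome as Hsd11b1 and G0s2, and the sources used here do not say if counting used the strand.

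Col22a1, a collagen of tissue junctions, dominated the later round spermatids. It was at 339 to 418 CPM in step 4-5, 467 ± 17.0 CPM in step 5-6 and 384 ± 34.0 CPM in step 6-7, and in step 5-6 the libraries read 467, 445 and 462 CPM in NONO and 463, 468 and 497 CPM in NONO deltaER. It accounted for 127344 UMI, more than any other member. Col20a1, a fibril-associated collagen, peaked a class later, at 229 ± 14.6 CPM in step 6-7, with 236, 250 and 208 CPM against 235, 224 and 220 CPM, and was at 112 CPM in step 7-8 and 55.0 CPM in elongated spermatids. Col15a1 (77.7 CPM), Col9a3 (35.7 CPM) and Col26a1 (24.1 CPM) had their highest germ cell level in step 5-6. Col9a3 overlaps Tcfl5.

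**Figure D5:**
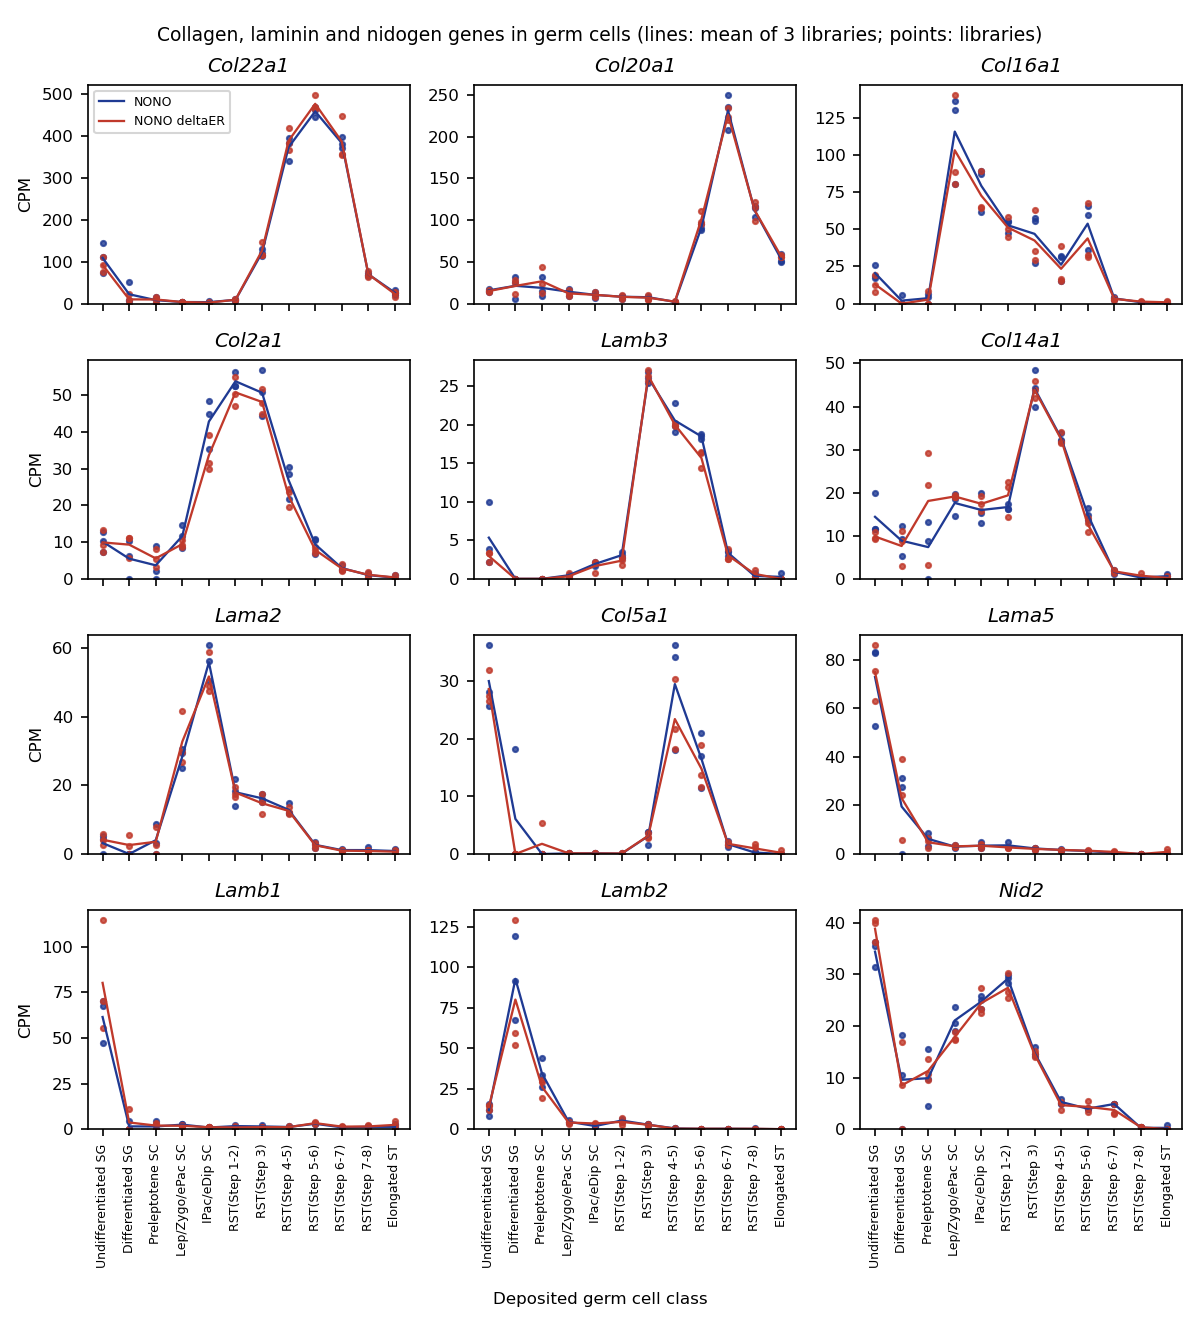
Level in CPM of 12 genes in the 12 deposited germ cell classes in order of differentiation (points are libraries, lines the mean of 3 libraries, blue NONO and red NONO deltaER). Levels change from class to class, such as Col22a1 at 3.02 CPM in late pachytene to early diplotene cells and 467 CPM in step 5-6 round spermatids. The lines of the genotypes run close together.

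No member in a germ cell class passed the adjusted threshold with all 6 libraries. In undifferentiated spermatogonia, where 0.0271% of genes passed it, the member median of 21 tested was -0.03. The lowest p there was that of Col28a1, at 7.96, 19.4 and 24.2 CPM against 5.78, 10.9 and 5.81 CPM (-1.15 ± 0.46, edgeR unadjusted p = 0.0263, adjusted p = 0.236), and 16.2% of all genes had an unadjusted p under 0.05. Without TA its edgeR adjusted p was 0.0372. The share of all genes that passed the threshold in that fit is not given here, so this call is not read as particular to Col28a1. In step 5-6 spermatids 2 of 39 tested members had an unadjusted edgeR p under 0.05, as did 2.94% of all genes. These were Col19a1 (0.67 ± 0.22) and Col6a6 (-0.82 ± 0.30), both under 5 CPM. In step 6-7 there were 2 of 29 (3.24% of genes), in step 4-5 there were 2 of 38 (2.46%), and in late pachytene to early diplotene cells 2 of 26 (3.42%). Only 1 member was past that level in step 3 (of 39, 2.94%), in step 1-2 (of 28, 2.35%) and in leptotene to early pachytene cells (of 24, 3.53%). No member was past it in step 7-8 (of 6 tested, 3.12% of genes), in elongated spermatids (of 3, 5.93%), in differentiated spermatogonia (of 1, 6.33%) or in preleptotene cells (of 1, 11.7%), where 0.327% of genes passed the adjusted threshold.

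Some germ cell members differed between the mitochondrial sets of libraries more than between genotypes. Col16a1 in step 3 spermatids was at 55.5, 57.7 and 63.2 CPM in TA, TB and TF and at 27.6, 35.1 and 29.2 CPM in TC, TD and TE. In leptotene to early pachytene cells it was at 130, 136 and 140 CPM against 80.3, 88.4 and 80.7 CPM. Col28a1 in step 4-5 spermatids was at 28.8, 31.3 and 34.0 CPM against 20.2, 24.1 and 21.7 CPM. Col9a3 in step 5-6 was at 40.6, 43.2 and 44.1 CPM against 28.8, 31.5 and 26.1 CPM. In each of these the sets did not overlap, and each set held libraries of both genotypes. The share of all genes whose sets did not overlap in these classes is not given here. The difference is therefore not read as a trait of these members.

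Over all cells of a library 54 members could be tested, with 20 above 0 and 34 below, and a median of -0.08. None passed the adjusted threshold (background 0.00%). Unadjusted edgeR p was under 0.05 for Col18a1, higher in NONO deltaER (as for 3.24% of all genes), and Col6a6, lower in it (as for 2.76%). Col18a1 was at 2.73, 1.94 and 1.55 CPM against 3.49, 2.26 and 3.50 CPM (0.56 ± 0.23, edgeR adjusted p = 0.823), with overlapping groups. On average 34.6% of its UMI came from Sertoli cells and 13.6% from the Myoid class.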

How the data were processed

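The deposited file holds UMI counts per gene and cell as whole numbers, made with Cell Ranger 2.1.1 on build mm10 per the submitters' processing notes. The sources used here do not name the annotation or later steps. The authors' cell table gives library, group, 17 cell classes and the percent of mitochondrial UMI per cell, used as deposited. All 46495 cells were kept. Scrublet (scanpy 1.11.5) marked 185 cells (0.398%) as doublets, too few to be relied on, so the 5% highest scores were left out only as an alternative.

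Counts were summed per library and class and tested with edgeR 4.0.16 (TMM, filterByExpr, quasi-likelihood, robust; Benjamini-Hochberg over all genes tested, threshold 0.05) in R 4.3.3, in classes with at least 20 cells per library in at least 2 libraries per genotype. Class differences used limma 3.58.1 on differences of log2 CPM within libraries (prior count 2), and shares of cells an exact permutation test. Alternatives were DESeq2 1.42.0, its size factors, no filter, cells with at least 1000 UMI, each library left out, and the mitochondrial set as covariate. The test was checked on simulated data. Named members were the 5 highest in the Myoid, Sertoli and Unknown classes, the highest of each other class, those with the lowest p, and the head-to-head pairs. Others, among them Lamc1, Lamc3, Nid1 in the Myoid class and the members that differ between library sets, were chosen after their values were seen. Of each partner list the 2 highest genes in its highest class are named. Members and lists were chosen with earlier results of these data known. The values of 1 member are not reported here, and the heat map leaves it out.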

Additional observations from a re-analysis of the deposited data

How the results depend on the processing

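Over 306 alternative fits of 22 named combinations of a gene and a class, 10 changed direction, all of differences far from the threshold. For Lamb2 in the Unknown class the log2 fold change was -0.037 with no filter, -0.11 without the 5% highest doublet scores, -0.13 in cells with at least 3 marker UMI, -0.26 in these without TC, and -0.24 to 0.35 with 1 library left out (below 0 without TC, and -0.10 without TD). Lamb1 there was at -0.011 in marker cells without TC and -0.0071 (without TC) to 0.68 with 1 library left out, and Col15a1 at -0.014 in marker cells without TC. Col22a1 in Sertoli cells was at -0.28 to 0.033 with 1 library left out, the latter without TD. The cause was not tested.

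The difference in Myoid share (NONO deltaER minus NONO) was -0.046 percentage points in cells with at least 1000 UMI, -0.057 without high doublet scores and -0.25 to 0.34 with 1 library left out. That of macrophages was -0.29 to 0.027. The count of members past the threshold was 0 under every alternative and class except 1 in undifferentiated spermatogonia without TA, so 0 to 1 with 1 library left out. The share of all genes past it in that fit is not given here. With classes weighted equally, 48.6% of type IV collagen UMI came from the Myoid class and 25.5% of all member UMI from germ cells, by construction.

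In the Myoid class, members at an unadjusted edgeR p under 0.05 numbered 5 without TA or TE, 6 with the mitochondrial set as covariate, 2 without high doublet scores, and 18 without TB. The share of all genes at that level in these fits is not given here. The lowest adjusted p over the alternatives was 0.13, without TF. Leaving out the 5% highest doublet scores moved 6 of 135 levels by over 1 SD, among them Lama2 in Unknown, to 2046 CPM. No paired analysis was possible because the libraries carry letters and no replicate numbers shared between genotypes. Levels in the Myoid class of TC rest on 34507 UMI, where 1 UMI is 29.0 CPM.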
